A study of Homo sapiens with 6 samples.

Results

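Pyrimidine nucleoside salvage was described by 10 genes, listed by symbol and matched to Ensembl identifiers without version: CDA, DCTD, DCK, TK1, TK2, UCK1, UCK2, SAMHD1, SLC29A1 and SLC29A2. All 10 were present among the 60483 genes of the count table, and all 10 passed the filter on low counts. RNA-seq was performed on untreated HAP1 cells (C631), a near-haploid line derived from chronic myelogenous leukemia, and on HELLS KO cells, a derivative that carries a single-base insertion in exon 3 of HELLS. Each genotype had 3 libraries, grown under normal conditions, and replicate 3 of both genotypes carries a batch label that replicates 1 and 2 lack. The HELLS KO line is 1 clone bought from a supplier, so a difference between the genotypes cannot be told apart from a difference between this clone and the parental line. CDA was selected on its fold change and adjusted p in this same comparison, and the other 9 genes were listed by function. The values of CDA are therefore given as a description without a test, and the question put to the other 9 genes was whether they moved with it.

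Cells can make pyrimidine nucleotides from simple precursors, or they can take up nucleosides and phosphorylate them, which is called salvage. Equilibrative transporters carry the nucleosides across the plasma membrane, and kinases trap them as monophosphates. Cytidine deaminase, the product of CDA, converts cytidine and deoxycytidine to uridine and deoxyuridine, and it inactivates cytidine analogue drugs such as gemcitabine, cytarabine and decitabine. Deoxycytidine kinase, the product of DCK, acts on the same analogues in the opposite sense by adding the first phosphate.

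The total counts ranged from 13641237 to 24400187 per library, and replicate 3 was the deepest library of each genotype. HELLS itself was counted 1444, 1488 and 3671 times in HAP1 replicates 1 to 3, against 1410, 1375 and 2802 times in the KO libraries, and gene counts cannot show an insertion of a single base. Blood and myeloid markers gave little trace of the labelled leukemia origin. Of 14 such markers, 13 had at most 24 counts in any library, and SPI1 and HBG1 had none. Their summed level was 2.46 to 3.78 CPM (counts scaled to library size with TMM) in HAP1 and 1.82 to 3.04 in HELLS KO. The exception, the receptor gene KIT, averaged 27.0 ± 10.4 CPM in HAP1 but 3.56 ± 1.85 CPM in the KO (SD, n = 3 each). Its log2 fold change was -2.90 (SE 0.43, adjusted p = 0.015 from edgeR). The KIT call was lost when the first (adjusted p = 0.069, edgeR) or the second KO library (adjusted p = 0.11, edgeR) was omitted, and when 10 counts were required in every library (adjusted p = 0.053, edgeR). Of 8 fibroblast markers, LUM and DCN had 0 counts in every library. Of the 4 that were tested, 0 were called, beside 2.22% of all genes tested. The summed level of the 8 was 146 to 157 CPM in HAP1 and 64.8 to 80.8 in HELLS KO. PDGFRA accounted for most of that gap, and it was called with the replicate number as a block (adjusted p = 2.4e-04 against 0.061 without, edgeR). What part the markers have in the results below was not tested.

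CDA lies on chromosome 1 from 20589086 to 20618903 on the + strand (GRCh38). The promoter windows of CDA, DCK and UCK1 are shown because the members differed most plainly there in a feature that played no part in listing them, the number of CpG dinucleotides. CpG is the site of DNA methylation in mammals, and methylation at these windows was not analysed here. The lines give the 250 bases before the RefSeq start (GRCh38.p14), 5′ to 3′ on the strand of the gene, with every CpG in capitals. They cover chr1:20588847-20589096 on the + strand for CDA, chr4:70993399-70993648 on the + strand for DCK and chr9:131531264-131531513 on the - strand for UCK1.
CDA: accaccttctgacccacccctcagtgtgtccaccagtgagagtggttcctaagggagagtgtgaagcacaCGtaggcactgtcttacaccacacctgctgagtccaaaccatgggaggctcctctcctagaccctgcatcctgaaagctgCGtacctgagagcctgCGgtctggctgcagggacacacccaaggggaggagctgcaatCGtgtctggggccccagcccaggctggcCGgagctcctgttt
DCK: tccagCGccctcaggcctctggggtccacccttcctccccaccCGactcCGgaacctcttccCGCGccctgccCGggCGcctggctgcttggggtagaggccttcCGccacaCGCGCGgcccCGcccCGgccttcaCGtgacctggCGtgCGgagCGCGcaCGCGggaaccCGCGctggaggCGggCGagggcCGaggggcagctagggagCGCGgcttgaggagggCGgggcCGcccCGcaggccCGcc
UCK1: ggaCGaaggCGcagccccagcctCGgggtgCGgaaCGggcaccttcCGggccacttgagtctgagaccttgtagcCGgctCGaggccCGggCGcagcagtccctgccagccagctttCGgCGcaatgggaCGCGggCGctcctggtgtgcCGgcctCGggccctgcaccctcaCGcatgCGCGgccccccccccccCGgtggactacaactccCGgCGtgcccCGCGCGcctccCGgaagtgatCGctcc
These stretches hold 5 CpG for CDA, 31 for DCK and 28 for UCK1. RefSeq windows of 300 bases, running from 250 before to 50 after the start, were found for 9 of the 10 genes. SLC29A2 had no window. The CDA window held 8 CpG, and 41.6% of all 35116 windows held no more than that. The 11 windows of the other 8 genes held 19 to 47 CpG, against a median of 14 over all windows. The lowest of them, a window of TK1, exceeded 57.1% of all windows and the highest, a window of DCTD, exceeded 97.6%. The DCK and UCK1 windows, printed in part above, held 37 and 36 CpG. Those of TK2 and SAMHD1, with 21 and 22, lay nearer to CDA, so the printed lines do not stand for all members. The GC content of the CDA window was 62%, within the range of 56.3% to 79.3% seen in the others. The GC box letters GGGCGG, searched on both strands, occurred 0 times in the windows of CDA, TK2 and SAMHD1 and 1 to 4 times in each window of the other members, and 45.0% of all windows held them. The letters CCAAT occurred in windows of TK1, UCK2 and SAMHD1 and in 34.6% of all windows. The letters TATAAA occurred in a window of TK1 and in 11.5% of all windows, and the CDA window held neither CCAAT nor TATAAA. A match or its absence describes these letters only.

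The deaminases CDA and DCTD differed in their values. CDA was counted 162, 141 and 159 times in HAP1 replicates 1 to 3, against 39, 32 and 71 times in the KO libraries. Every HELLS KO library was below every HAP1 library, although replicate 3 was much deeper in both genotypes. In FPKM (fragments scaled by gene length and library size, a deposited unit that allows genes of different length to be compared), CDA had 11.7, 10.5 and 6.73 in HAP1 and 2.74, 2.27 and 2.99 in HELLS KO. The fitted log2 fold change was -1.84 (SE 0.28), which is 3.58-fold lower in HELLS KO. Of the 17925 genes tested, 0.72% were lower in HELLS KO by the same cut-offs, and nothing is read from this for CDA, which those cut-offs chose. In these bulk samples, fewer cells that express a gene and less RNA in each cell cannot be told apart.

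The size of the difference moved with the batch. Over replicates 1 and 2, CDA was 4.4-fold lower in HELLS KO, and within the labelled batch of replicate 3 it was 2.27-fold lower. The CPM of replicate 3 was 0.612 times the mean of replicates 1 and 2 in HAP1 and 1.19 times that mean in HELLS KO. CDA was the single member of the 10 whose replicate 3 departed in opposite directions in the 2 genotypes. The part of the batch in this was not tested. None of the 817 stretches of 31 bases in annotated CDA transcripts occurred in a transcript of another gene, and no exon of another gene overlapped it.

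DCTD encodes dCMP deaminase, which performs the same chemistry one step later, on deoxycytidine monophosphate, and supplies dUMP for thymidylate synthesis. It had 31, 30.2 and 29.3 FPKM in HAP1 and 32.1, 31.5 and 29.5 in HELLS KO. The libraries overlapped between the genotypes and the log2 fold change was 0.05 (SE 0.10, 95% interval -0.19 to 0.29). Within a library, the ratio of DCTD to CDA in FPKM lay between 2.64 and 4.36 in HAP1 and between 9.86 and 13.9 in HELLS KO. This gap mostly restates the CDA values by which CDA was chosen.

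The kinases of deoxynucleosides showed no genotype difference that passed the test. DCK had 16.2, 16.1 and 22 FPKM in HAP1 and 18.8, 18.9 and 19.9 in HELLS KO. The HELLS KO libraries sat inside the HAP1 range, with a log2 fold change of 0.09 (SE 0.16, 95% interval -0.29 to 0.46). The FPKM ratio of DCK to CDA, the kinase and the deaminase that act on the same cytidine analogues, was 1.38, 1.53 and 3.26 in HAP1 and 6.85, 8.32 and 6.65 in HELLS KO. HAP1 replicate 3, with the highest ratio of its genotype, held the highest DCK and the lowest CDA value among the HAP1 libraries. The gap in this ratio between the genotypes mostly restates the CDA values by which CDA was chosen, and it is no separate result.

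TK1, the cytosolic thymidine kinase whose level follows the cell cycle, was the most abundant member per length. It had 55.1, 58.4 and 42.4 FPKM in HAP1 and 60.9, 54.3 and 41.1 in HELLS KO, with replicate 3 lowest in both genotypes. Its log2 fold change was 0.01 (SE 0.19, 95% interval -0.43 to 0.45). The 15 S phase markers had a summed level of 2280 to 2920 CPM in HAP1 and 2250 to 2880 in HELLS KO. Of them, 0 were called, beside 2.22% of all genes tested, and their median log2 fold change was -0.01. TK2, the mitochondrial enzyme, was the least abundant member in HAP1. It had 2.85, 3.10 and 3.11 FPKM in HAP1 and 2.87, 3.24 and 3.44 in HELLS KO, and a log2 fold change of 0.08 (SE 0.15, 95% interval -0.28 to 0.44). TK1 exceeded TK2 in FPKM by 12.0 to 21.2 times over the 6 libraries. Of the stretches of 31 bases in TK2 transcripts, 18.5% occurred in transcripts of other genes, the highest share among the members. SAMHD1 was next at 14.5%, so reads of both genes may be uncertain.

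UCK1 and UCK2 encode the uridine-cytidine kinases, which phosphorylate the ribonucleosides and activate azacitidine. UCK1 had 32.2, 35.2 and 29.8 FPKM in HAP1 and 37.7, 32.8 and 28.9 in HELLS KO. UCK2 had 26.0, 26.5 and 23.9 FPKM in HAP1 and 25.6, 24.7 and 23.5 in HELLS KO. Both genes overlapped between the genotypes, with log2 fold changes of 0.04 (SE 0.14) for UCK1 and -0.04 (SE 0.10) for UCK2. UCK1 was 1.23 to 1.47 times UCK2 in FPKM in every library of either genotype.

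SAMHD1 encodes the dNTP triphosphohydrolase that breaks down deoxynucleotides and the active triphosphates of cytarabine and decitabine. It had 23.3, 23.7 and 25.7 FPKM in HAP1 and 22, 23.3 and 24.6 in HELLS KO, and its log2 fold change was -0.05 (SE 0.11, 95% interval -0.30 to 0.20). Its annotated exons overlap those of TLDC2 on the opposite strand over 9.86% of their bases, and the strand setting of the counting was not given in the sources used here.

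SLC29A1 and SLC29A2 encode the equilibrative transporters ENT1 and ENT2, the main entry routes of nucleosides and their analogues. SLC29A1 had 49.4, 50.4 and 38.4 FPKM in HAP1 and 50.7, 47.5 and 39.0 in HELLS KO. SLC29A2 had 32.8, 33.3 and 19.8 FPKM in HAP1 and 31.1, 31.4 and 22.9 in HELLS KO. In both genes replicate 3 was the low library of each genotype and the groups overlapped. The 95% interval of the log2 fold change ran from -0.36 to 0.35 for SLC29A1 and from -0.54 to 0.54 for SLC29A2, the widest among the 9. SLC29A1 exceeded SLC29A2 in FPKM by 1.51 to 1.94 times.

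**Figure D1:**
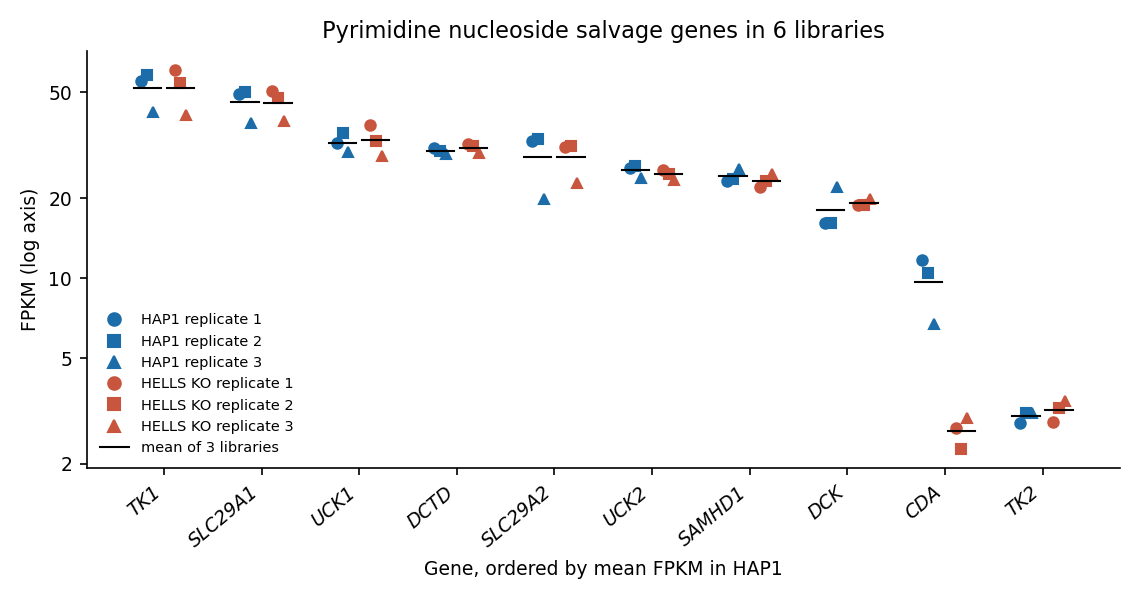
FPKM (y axis, log scale) of the 10 salvage genes in the 6 libraries, ordered by the HAP1 mean. Blue points are HAP1 and red points HELLS KO, the shape gives the replicate, and black bars are means of 3 libraries. The genotypes overlap for 9 genes and are apart for CDA, which drops from 9.67 to 2.67 FPKM on average.

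A gene counted as called when its Benjamini-Hochberg adjusted p from edgeR (quasi-likelihood, 17925 genes) was below 0.05 and its log2 fold change reached 1 in size. Of the other 9 members, 0 were called. Over all tested genes 2.22% were called in either direction. The unadjusted p of the 9 genes ranged from 0.6 to 1.0, so 0 were under 0.05, and 0 were called by DESeq2 or by limma. Their log2 fold changes lay between -0.05 and 0.09. None of the 9 intervals at 95% reached a log2 fold change of -1 or 1, and the lowest bound was -0.54. In the fit blocked on replicate number the bounds narrowed to between -0.22 and 0.36. In all 9 genes the libraries of the genotypes overlapped, whereas 10.1% of tested genes showed no overlap. In this list CDA alone was lower beyond the cut-offs, which had chosen it. A count of 0 among 9 genes lies near both shares over all genes, so the counts say little about these 9. A p that misses the threshold does not show equal levels, and the intervals above bound the differences that remain possible. The p-values measure the spread between these libraries, which may be technical. The 9 genes rested on at least 293 counts in each library, more than CDA.

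**Figure D2:**
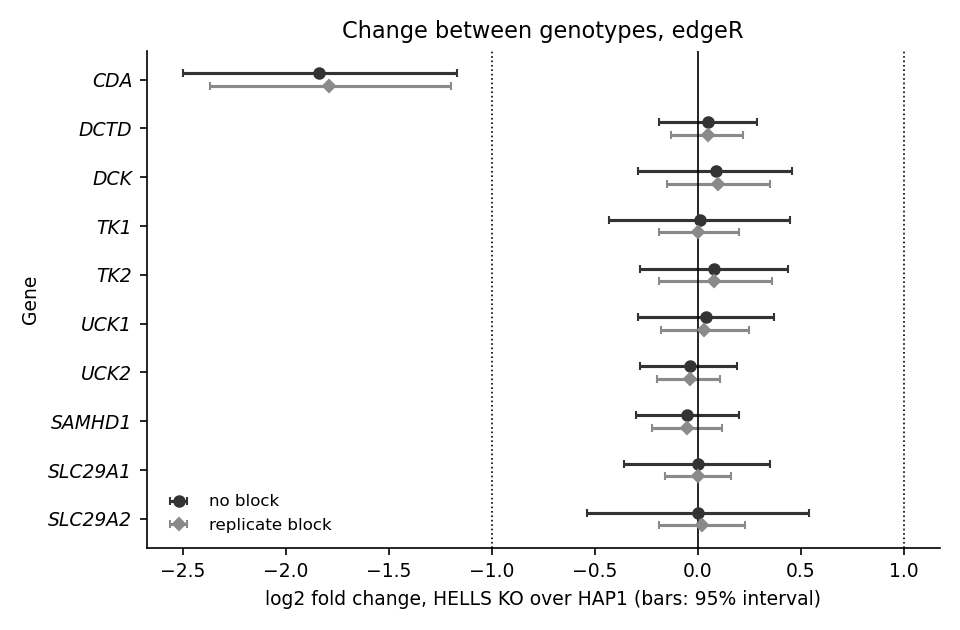
Log2 fold change of HELLS KO over HAP1 (x axis) with 95% intervals for the 10 genes (y axis), from edgeR without a block (black circles) and with the replicate number as a block (grey diamonds). Dotted lines mark -1 and 1. The 9 other genes lie within 0.1 of 0, and CDA at -1.84.

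In HAP1 the order of levels per length ran from TK1, SLC29A1, UCK1, DCTD, SLC29A2, UCK2, SAMHD1 and DCK to CDA and TK2. The ranges of neighbours in this order overlapped for TK1 and SLC29A1, and for each neighbouring pair from UCK1 to SAMHD1, so the order among those is not resolved by ranges alone. SAMHD1 and DCK, DCK and CDA, and CDA and TK2 did not overlap in HAP1. In HELLS KO the order was the same except at its end. There CDA had 2.67 ± 0.369 FPKM (SD, n = 3) and TK2 had 3.18 ± 0.288 (SD, n = 3), and their ranges overlapped, although TK2 was higher in 3 of 3 libraries.

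The other genes of nucleoside and nucleotide metabolism were taken from 8 lists with 69 genes, of which 50 were tested. Of these 50, 3 were called lower and 0 higher in HELLS KO, beside 0.72% of all genes tested that were called lower, and the median log2 fold change was 0.01, as it was over all genes tested. All 3 were deaminases of the APOBEC3 group, described below. Outside the deaminase family, 0 of 42 tested genes were called, beside 2.22% of all genes tested, and 1 had an unadjusted p under 0.05 (edgeR). With the replicate number as a block, for which 3.51% of all genes were called, that gene, ADA2, was called higher. ADA2 encodes a secreted adenosine deaminase. Its counts were 61, 58 and 51 in HAP1, against 103, 126 and 161 in the KO, without overlap, and its log2 fold change was 1.09 (SE 0.32, adjusted p = 0.28 from edgeR, and 0.032 with the block).

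In the steps next to salvage, 0 of the tested genes were called, beside 2.22% of all genes tested. Lists this short would often hold 0 calls at that share. Among the other transporters, SLC29A4 averaged 91.9 ± 34.5 CPM in HAP1 against 81.9 ± 24.6 in the KO (SD, n = 3), and SLC29A3 had 26.1 ± 2.88 and 29.8 ± 3.23. The concentrative carriers were barely detected, since SLC28A1 and SLC28A3 were not tested, with at most 0.84 CPM in any library, and SLC28A2 averaged 0.567 CPM in HAP1. CMPK1, the UMP-CMP kinase that adds the next phosphate, averaged 105 ± 12.3 CPM in HAP1 against 109 ± 3.16 in the KO. NME3, a nucleoside diphosphate kinase, had the largest log2 fold change of the 10 nucleotide kinases at -0.50 (SE 0.30). Uridine phosphorylase UPP1 had a log2 fold change of -0.01 (SE 0.17) and thymidine phosphorylase TYMP of -0.36 (SE 0.40), whereas UPP2, DPYD, DPYS and UPB1 were too low to be tested. NT5M, a mitochondrial deoxynucleotidase, had the most negative value of 8 nucleotidases and dNTP hydrolases at -0.54 (SE 0.38), and DUT and NT5C3B lay at 0.03 and -0.02.

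Of the 7 genes of de novo synthesis and the 3 of ribonucleotide reductase, 0 were called, beside 2.22% of all genes tested. CAD, which catalyses the first steps of the de novo route, averaged 404 ± 30.3 CPM in HAP1 against 388 ± 41.4 in the KO (SD, n = 3). UMPS, which completes UMP, had 124 ± 10.8 and 137 ± 0.443 CPM, apart in the libraries but with a log2 fold change of 0.15 (SE 0.11, adjusted p = 1.0 from edgeR). The ribonucleotide reductase subunits RRM1 and RRM2 lay at -0.01 and 0.07 on the log2 scale. In purine salvage, AMPD2 and HPRT1 lay at 0.06 and -0.05.

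The called genes of these lists were all APOBEC3 genes on chromosome 22, in the deaminase family to which CDA is related by fold. The 16 listed genes included the APOBEC genes, CDADC1, the tRNA deaminases ADAT2 and ADAT3, and ADAD1 and ADAD2, and 8 were tested. Of these 8, 3 were called lower, beside 0.72% of all genes tested. APOBEC3 enzymes deaminate cytosine in single-stranded DNA and restrict viruses and retroelements, and they do not act on free nucleosides. APOBEC3C (chromosome 22, 39014257 to 39020352) was counted 859, 945 and 1355 times in HAP1, against 140, 111 and 226 times in the KO. This was 61.9 ± 6.26 against 8.89 ± 0.985 CPM (SD, n = 3 each), a log2 fold change of -2.80 (SE 0.16, adjusted p = 2.8e-04 from edgeR). APOBEC3G was counted 84, 83 and 87 times in HAP1, against 4, 2 and 6 times in the KO, a ratio of 21.7 in normalised counts. Its log2 fold change was -4.49 (SE 0.41, adjusted p = 0.0024 from edgeR). APOBEC3D was counted 31, 24 and 29 times in HAP1, against 2, 2 and 4 times in the KO, a ratio of 10.7 (adjusted p = 0.011 from edgeR). Among all deposited counts from 1 to 20, 59.8% were even, so low counts may not be independent single events, and no counting interval is given. The APOBEC3D call is uncertain, since 90.6% of its stretches of 31 bases occur in transcripts of other genes. It was lost when HAP1 replicate 1 (adjusted p = 0.055, edgeR) or the first (0.063) or second (0.08) KO library was left out. The share of such stretches was 10.6% for APOBEC3C, 14.5% for APOBEC3G and 25.7% for APOBEC3F. Other APOBEC3 genes were among the main sources, so the values of these genes may not be fully separate.

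The rest of the group did not pass. APOBEC3F was counted 229, 199 and 186 times in HAP1, against 121, 117 and 128 times in the KO, a log2 fold change of -0.82 (SE 0.33, adjusted p = 0.68 from edgeR). With the block its adjusted p was 0.037 but its log2 fold change stayed short of -1. APOBEC3B, which lies on the other side of APOBEC3C, averaged 4.49 ± 0.441 CPM in HAP1 against 4.54 ± 1.87 in the KO (SD, n = 3). CDADC1 and the tRNA deaminases ADAT2 and ADAT3 lay at 0.23, 0.06 and 0.11 on the log2 scale. APOBEC1 had 0 counts in every library. Within the labelled batch of replicate 3, APOBEC3C was 6.09-fold and APOBEC3G 14.7-fold lower in HELLS KO, against 7.43-fold and 28.8-fold over replicates 1 and 2.

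**Figure D3:**
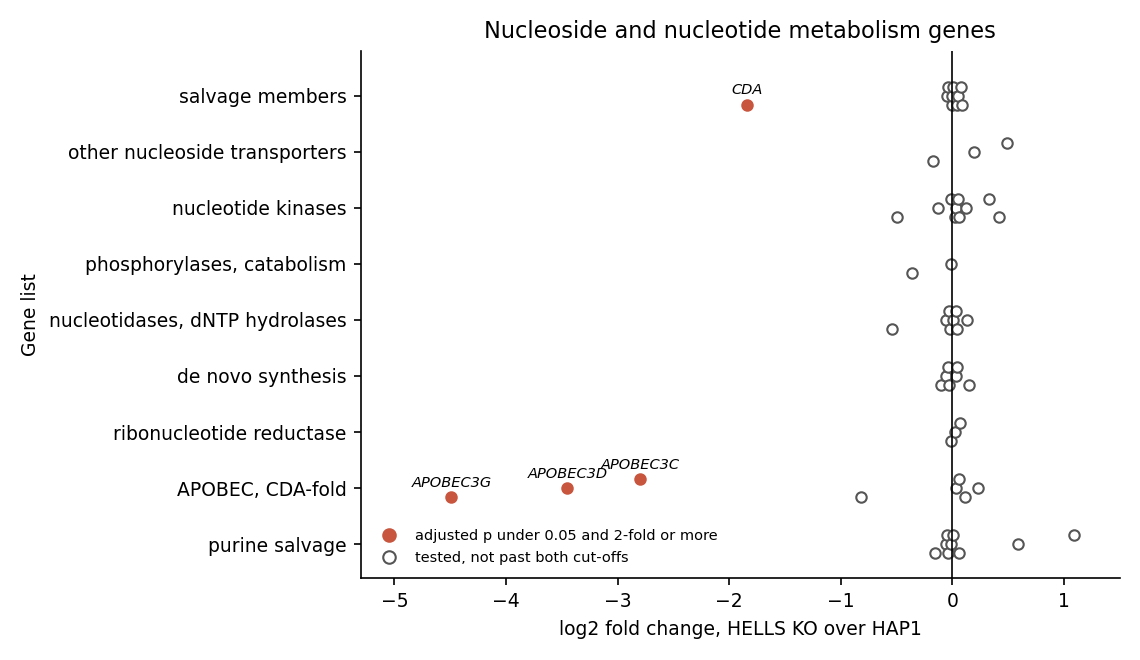
Log2 fold change of HELLS KO over HAP1 (x axis) for the tested genes of the salvage list and of 8 lists of nucleoside and nucleotide metabolism (y axis). Each circle is a gene, red where it passed both cut-offs. Red circles are CDA at -1.84, which those cut-offs had chosen, and APOBEC3C, APOBEC3D and APOBEC3G from -2.80 to -4.49.

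Near CDA, 10 other genes within 500 kb were tested and 0 were called, beside 2.22% of all genes tested. The nearest, PINK1, a mitochondrial kinase gene 14.6 kb away, was counted 455, 460 and 593 times in HAP1, against 380, 378 and 579 times in the KO, and PINK1-AS lay at 0.04 on the log2 scale. The log2 fold change of PINK1 was -0.24 (SE 0.17), and its reads and those of PINK1-AS cannot be told apart where they overlap if strand was not used. The lowest neighbours were FAM43B and KIF17. FAM43B was counted 56, 64 and 18 times in HAP1, against 23, 22 and 28 times in the KO, a log2 fold change of -1.11 (SE 0.63). KIF17, a kinesin gene, was counted 223, 277 and 200 times in HAP1, against 112, 127 and 144 times in the KO, a log2 fold change of -0.97 (SE 0.35, adjusted p = 0.48 from edgeR). In CPM the genotypes overlapped for both genes, in each case through a low HAP1 replicate 3. Blocked on replicate number, KIF17 had a log2 fold change of -0.90 and an adjusted p of 0.03 (edgeR), short of the fold cut-off. KIF17 passed both cut-offs when HAP1 replicate 3 was left out (log2 fold change -1.26, adjusted p = 0.045, edgeR). The remaining neighbours lay between -0.35 and 0.09.

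**Figure D4:**
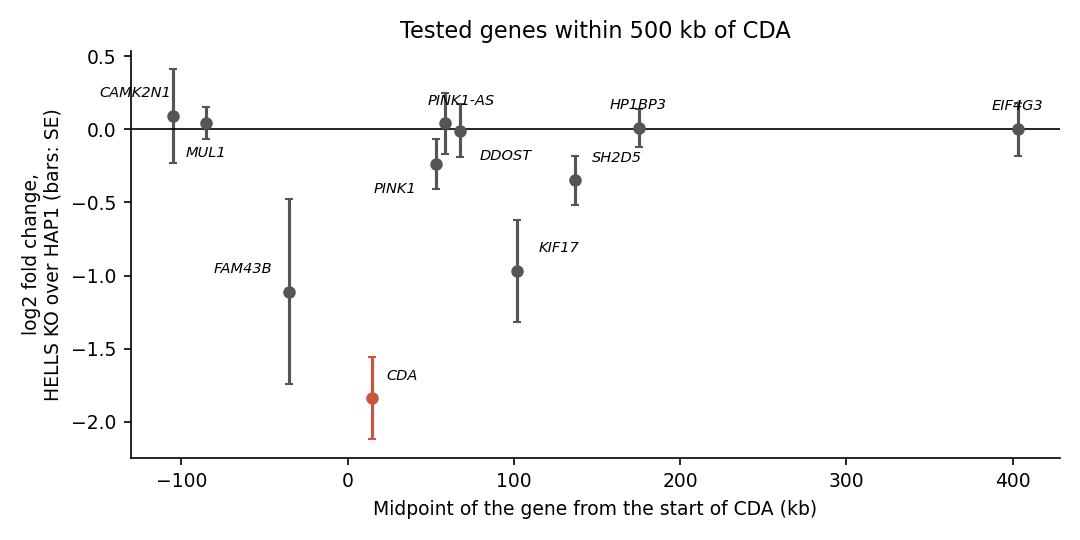
Log2 fold change with SE (y axis) of the 11 tested genes within 500 kb of CDA, CDA included, by the distance of the gene's midpoint from the CDA start in kb (x axis). CDA is in red at -1.84, and FAM43B at -1.11 and KIF17 at -0.97 are the next lowest.

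Across the 6 libraries, the genes most like CDA in log2 CPM, among 16602 with a mean of at least 1 CPM, were ENSG00000225913, LYL1, CRB2, ENSG00000222012 and PPP1R3G, with Pearson's r between 0.9905 and 0.995. The 6 points fall into 2 genotypes, replicate 3 of each is deeper and carries the batch label, and CDA was chosen for its genotype difference, so these values are a description. LYL1, a transcription factor gene known from blood cells, was counted 126, 118 and 73 times in HAP1, against 8, 8 and 18 times in the KO. PPP1R3G, a regulator of glycogen metabolism, had 98, 72 and 95 against 16, 9 and 24. The r of CDA with the other 9 members ran from -0.53 for DCK to 0.47 for UCK2, and it was 0.99 with APOBEC3G.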

How the data were processed

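Libraries were prepared by the authors from total RNA with a directional kit, sequenced as read pairs, aligned with STAR (2.7.3a) to GRCh38 and filtered for duplicates and for a mapping quality of 20 or more. The authors deposited raw counts per gene from featureCounts (2.0.6) and FPKM values, which match the counts, DESeq2 size factors and 1 length per gene within 0.1% for 100% of values. The annotation release and strand setting were not given in the sources used here. Removal of duplicates caps the counts of abundant genes, and the members reached at most 1.04 counts per base, for TK1. Groups and replicates came from the sample titles. Nothing states that the replicates were separate cultures beyond the term biological replicates.

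The counts of all 6 libraries were fitted in R 4.3.3 with edgeR 4.0.16 (filterByExpr, TMM, glmQLFit, glmQLFTest, no block). P-values were adjusted by Benjamini-Hochberg over 17925 genes, and calls required an adjusted value below 0.05 together with a log2 fold change of 1 or more in size. SE and 95% intervals came from the F statistic. On simulated counts of 18364 genes for this comparison, edgeR recovered 189 of 190 tested genes changed by 2 on the log2 scale, with 6 false calls. Of its intervals, 94.9% held the true value. The simulation gave every gene the same dispersion and held no batch, so these rates may not carry over to the libraries here. Alternatives were DESeq2 1.42.0, upper-quartile scaling, other filters, a replicate block, a batch term, replicates 1 and 2 only, each library left out, and limma 3.58.1 on log2(FPKM + 1) and log2(FPKM + 0.1). Deviations from the genotype means correlated at 0.416, 0.197 and 0.778 between same-numbered libraries 1, 2 and 3, each above 0.1, so the numbers were treated as pairs in the block. HAP1 replicate 2 with HELLS KO replicate 1 (0.591) and HAP1 replicate 1 with HELLS KO replicate 2 (0.33) correlated more than the pair of replicates 2, so the check separates replicate 3 but not replicates 1 and 2. The members and gene lists were chosen with earlier results of these data known. Named were the members, HELLS and, per list, the called genes, the largest change and the 2 most abundant genes, with further genes near or most like CDA. KIT, PDGFRA, APOBEC3B, APOBEC3F, CDADC1, ADAT3, FAM43B, KIF17, ADAL and the genes at 0 or too low to test were named after seeing their values. Symbols and coordinates came from GENCODE release 44 for 56321 identifiers, and promoter sequences from RefSeq (GRCh38.p14). A count of 0 allows up to 3 counts if counts are independent single events, which may not hold for low counts here. Shared sequence was measured as stretches of 31 bases of annotated transcripts found on either strand in transcripts of other genes. Some list genes are not reported here by name.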

Additional observations from a re-analysis of the deposited data

How the results depend on the processing

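The number of called genes among the 9 other members was 0 under all 15 alternatives, and their log2 fold changes lay between -0.21 and 0.26 throughout. The log2 fold change of CDA was -1.51 when limma was run on log2(FPKM + 1), where low values are compressed, and -1.18 in replicate 3 alone, a ratio of 2 libraries added after seeing the data. Leaving out each library gave -2.04 to -1.68. The cut-offs that brought CDA into the list were met in 10 of 15 alternatives. They were missed with at least 10 counts in every library and when replicate 1 or replicate 2 of either genotype was omitted. The alternatives reuse the libraries that selected CDA, so this count shows how the selection depends on processing and is no test of CDA. With the replicate block its log2 fold change was -1.79, and the block changed no call other than those of ADA2 and PDGFRA among the members, pathway genes, markers and neighbours. The number of called pathway genes, 3, was 1 with at least 10 counts in every library, which removes APOBEC3D and APOBEC3G, and 1 in limma on log2(FPKM + 1). It was 4 with DESeq2 and without a filter, where ADAL was called higher, and 4 with the replicate block or the batch term. The number of called neighbours, 0, was 1 with replicates 1 and 2 only and 0 to 1 when each library was left out, KIF17 in each case. Over all genes, 129 were called lower and 269 higher, and the alternatives gave 40 to 285 lower and 29 to 428 higher. Depth limits APOBEC3D and APOBEC3G, whose HELLS KO libraries hold 2 to 6 counts.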

Other observations

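Replicate 3 differed from replicates 1 and 2 in the level of several salvage genes in both genotypes. For SLC29A2 the CPM of replicate 3 was 0.606 times the mean of replicates 1 and 2 in HAP1 and 0.725 times in HELLS KO, for TK1 0.757 and 0.708 times, and for SLC29A1 0.781 and 0.787 times. For DCK it was 1.38 and 1.05 times.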
